A study of Mus musculus with 12 samples.

Results

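The genes described here are p53 target genes and cell cycle inhibitors in a mouse melanoma model, namely Cdkn1a, Mdm2, Ccng1, Bbc3, Bax, Pmaip1, Sesn1, Zmat3 and Trp53inp1. They were taken by gene symbol from a list of 10 genes, and 9 of these 10 had a row among the 17285 genes of each of the 2 tables used. The tenth, Cdkn2a, had no row used here, so its level was not analysed and only its promoter windows were searched.

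The study compared melanoma cells with and without the transcription factor NRF2, which is encoded by Nfe2l2. A total of 12 samples of poly(A) RNA formed 4 groups of 3: cultured cells with wildtype Nfe2l2, cultured cells with Nfe2l2 knockout, tumors of the wildtype cells and tumors of the knockout cells. All came from the line 781 of C57BL/6 background, which was isolated from tumors of a mouse melanoma model with the alleles Tyr-CreERT2 and BRAF CA among others, so that the controls too carry the BRAF oncogene. In these mice the melanocyte promoter of Tyr drives the tamoxifen-dependent recombinase. The knockout was made with a pair of guide RNAs used together. For the tumors, 1 control and 1 knockout set of cells were injected under the skin of young immunocompetent C57BL/6 mice of both sexes, and whole tumors hold host cells besides the melanoma cells. Which set was sequenced in culture is not stated in the sources used here.

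One level per gene and table was used, the authors' mean on a log2 scale of CPM, the counts of a gene scaled to a common library total. This mean runs over the 6 samples of a table, knockout and control together, and therefore has no standard deviation. It cannot show an effect of the knockout. What it shows is how strongly each gene was expressed in the cultured cells and in the tumors. The sources used here do not say that the 2 tables were normalized together, so each difference between them is a description with no test and no replicate check.

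p53 is a transcription factor that is stabilized when DNA is damaged or an oncogene is active. Its targets stop the cell cycle, start apoptosis, repair DNA or adjust metabolism, and some of them switch p53 off again. In melanoma the CDKN2A locus, whose ARF product protects p53 from MDM2, is often lost.

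Direct targets of p53 carry binding sites made of a pair of 10-base half-sites, often close to the start of transcription. To show what the promoters of these genes hold, windows from 250 bases before to 50 bases after each RefSeq start (GRCm38.p6) were searched for the p53 half-site. The half-site reads the same on both strands, so 1 search covers both. Of the listed genes, 7 had a window: Cdkn1a, Cdkn2a, Mdm2, Ccng1, Bbc3, Bax and Sesn1. Pmaip1, Zmat3 and Trp53inp1 are named only. The genes with a match are shown 5′ to 3′ along the gene, with the half-site in capitals and 25 bases on each side.
Cdkn1a, chr17:29090881-29090962, plus strand: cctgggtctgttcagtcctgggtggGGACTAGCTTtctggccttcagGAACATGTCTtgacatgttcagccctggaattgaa
Mdm2, chr10:117710910-117710969, minus strand: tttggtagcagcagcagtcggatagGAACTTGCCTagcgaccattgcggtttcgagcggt
Ccng1, chr11:40755437-40755496, minus strand: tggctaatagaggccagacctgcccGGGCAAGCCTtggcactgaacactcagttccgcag
Bax, chr7:45467065-45467124, minus strand: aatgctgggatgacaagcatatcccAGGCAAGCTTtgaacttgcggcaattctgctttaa
Sesn1, chr10:41887241-41887300, plus strand: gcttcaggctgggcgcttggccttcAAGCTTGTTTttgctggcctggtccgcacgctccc

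A half-site was present for 5 of the 6 genes with both a window and a row in the tables (83.3%), against 8.48% of the 10915 genes of the tables that had a window. With Cdkn2a, which had no row, it was 5 of 7 genes (71.4%). Counted by window, with the 2 of Cdkn2a included, 5 of 12 (41.7%) held it, against 8.36% of all 32851 windows. The genes were listed as p53 targets or cell cycle inhibitors, so a share above the background is not an independent result. The match began 201 bases before the start in Bax, 186 in Mdm2, 185 in Ccng1 and 173 in the second start of Sesn1. Cdkn1a had 2 half-sites, at 73 and 51 bases before its upstream start and 12 bases apart. Only exact matches were counted. The bases tgacatgttc, directly after the second of these, differ from the searched pattern only in their first base and were not marked. The pair counted here therefore need not be the pair that p53 binds. A pair of half-sites at most 13 bases apart stood in only 24 of all windows (0.0731%), and in 5 of the genes of the tables (0.0458%). No half-site lay in the windows of Bbc3 or Cdkn2a, in that of the second Cdkn1a start or in that of the first Sesn1 start, which says nothing of sites elsewhere. A match is a description of the letters and not a measured binding site.

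The members fell on both sides between culture and tumor. The level was higher in tumors for 5 members and lower for 4, of which Ccng1 had a difference of only -0.00112. There were 6 higher and 3 lower members under each of the other scalings tried. The members had a median difference, tumors minus cultured cells, of 0.46 on the log2 CPM scale. The same median over all genes was 0.10, and 55.9% of all genes were higher in tumors. When the tables were instead centred on 10 reference genes, these values were 0.79 for the members and 0.43 for all genes, of which 75.4% were then higher. Pmaip1, Cdkn1a and Trp53inp1 were higher in tumors by over 1, that is by over 2-fold, which is 3 of 9 members (33.3%) against 16.6% of all genes. Bax was lower by over 1, which is 1 of 9 (11.1%) against 3.96%, and with the reference genes as the centre it was not (-0.70). All 9 members lay above a mean log2 CPM of 1 in both tables, and among the 12676 genes that did so the shares were 8.31% for higher and 4.57% for lower. With 9 genes these shares are counts, not a result about the group.

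**Figure D1:**
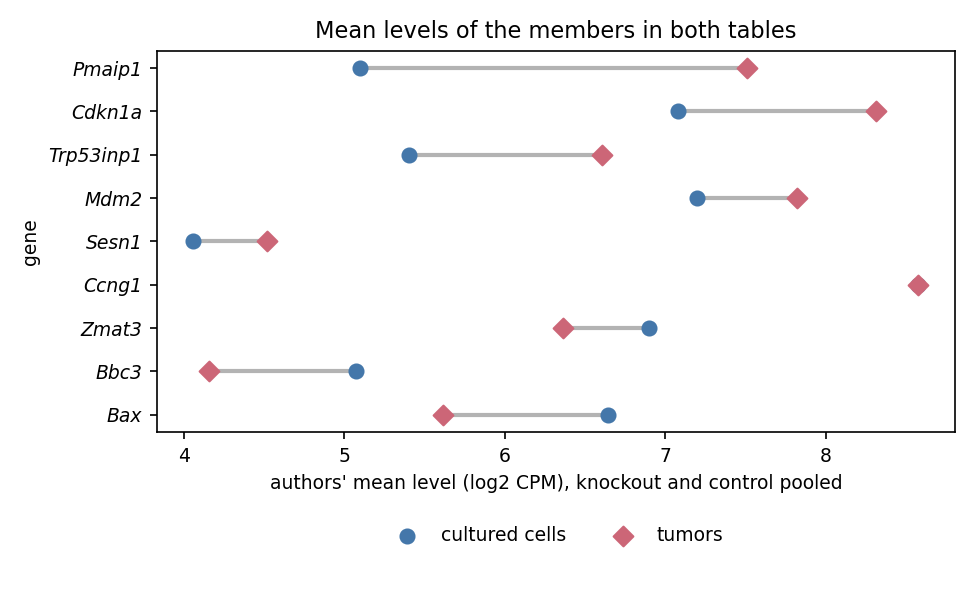
Mean level of each gene in cultured cells (circles) and tumors (diamonds), in log2 CPM, with knockout and control pooled by the authors, so that no error can be drawn. Pmaip1 has the longest line to the right (5.10 to 7.51), the symbols of Ccng1 coincide at 8.58, and Zmat3, Bbc3 and Bax lie lower in tumors.

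The cell cycle inhibitor of the group is Cdkn1a, which encodes p21, a protein that binds cyclin-CDK complexes and halts the cell in G1. Cdkn1a (ENSMUSG00000023067) lies on chr17:29090976-29100727 on the plus strand (GRCm38, GENCODE M21). Its mean level was 7.08 log2 CPM in cultured cells and 8.32 in tumors, or 135 against 319 CPM, a 2.36-fold difference. The gene stood above 89.9% of the genes in the cell table and above 97.3% in the tumor table. Its exons share 273 bases with those of AC167363.2 on the opposite strand. The library kit named in the labels does not mark strand, so reads from the shared bases cannot be assigned to either gene.

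The other inhibitors of cyclin-dependent kinases fell on both sides. Of 5 such genes 3 were higher (60.0%, against 55.9% of all genes) and 2 lower in tumors. All 5 were higher when centred on the reference genes, as were 75.4% of all genes. Cdkn1b, which encodes the p21 relative p27, was at 6.77 log2 CPM in cells and 6.73 in tumors. Cdkn2c, an inhibitor of CDK4 and CDK6, was at 6.91 and 6.71. Cdkn2d, of the same family, was at 4.58 and 5.59, a difference of 1.00. Cdkn1c (-0.24 and 0.31) and Cdkn2b (-0.93 and -0.01) were close to the lowest values of the tables, where levels are poorly determined.

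Within a table, the ratio of a pair of genes does not depend on how the tables were scaled. The log2 ratio of Cdkn1a to Cdkn1b was 0.31 in cells and 1.59 in tumors. That of Cdkn1a to Cdk4, which encodes a kinase of the G1 phase, was -1.74 in cells and 0.48 in tumors, so that Cdkn1a counts were below Cdk4 counts in culture and above them in tumors. Cdkn1a against Mki67, a marker of cycling cells, moved from -2.25 to -0.43.

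Most proliferation markers and most cyclin, CDK and RB pathway genes were lower in tumors on the deposited scale. All 14 proliferation markers were lower, 6 of them by over 1 (42.9%, against 3.96% of all genes), with a median difference of -0.84. Centred on the reference genes, 13 were lower, 3 of them by over 1 (21.4%, against 1.67% of all genes), with a median of -0.51. Mcm2 (7.98 and 6.41 log2 CPM) and Mcm5 (7.81 and 6.27), subunits of the replicative helicase, differed most, followed by Mcm3, Cdc20, Plk1 and Rrm2 (-1.34 to -1.03), and Pcna (-0.39) and Top2a (-0.24) least. Of 17 cyclin, CDK and RB pathway genes 12 were lower and 5 higher (29.4%, against 55.9% of all genes), with a median of -0.40. When centred on the reference genes, 9 were lower and 8 higher (47.1%, against 75.4%), with a median of -0.07. Ccnd2 was lower by over 1 (8.19 and 7.15) and Cdk4 almost so (8.82 and 7.83). Cdk6 stood apart, at 3.52 log2 CPM in cells and 6.86 in tumors. Ccnd3 (5.46 and 5.84) was the next highest difference, at 0.38.

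Mdm2 and Ccng1 are the feedback genes of the group. Mdm2 (ENSMUSG00000020184) encodes the ubiquitin ligase that marks p53 for degradation and lies on chr10:117688875-117710758, minus strand. It was at 7.20 log2 CPM in cells and 7.82 in tumors, or 147 against 227 CPM. Ccng1 (ENSMUSG00000020326, chr11:40748552-40755311, minus strand) encodes cyclin G1, which recruits a phosphatase to MDM2. It had the same level in both tables, 8.58 log2 CPM or about 383 and 382 CPM, and stood above 97.8% and 97.9% of genes. Its difference, -0.00112, takes the opposite sign under each other scaling tried, so no direction can be given for it.

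Mdm4, which encodes the MDM2 partner that holds p53 inactive, differed in the direction of Mdm2 (6.62 and 7.32), and the log2 ratio of Mdm2 to Mdm4 was 0.58 and 0.51. Of 12 genes for p53 and its regulators 9 were lower and 3 higher in tumors, with a median difference of -0.14. Over all genes 55.9% were higher, with a median of 0.10. The direction of the list turned when the tables were centred on the reference genes, with 3 lower, 9 higher and a median of 0.19. Under that scaling 75.4% of all genes were higher, with a median of 0.43. The count of 9 higher therefore does not set this list apart from all genes. Chek1, a kinase of the replication checkpoint, was among the lower genes of the list on the deposited scale (5.29 and 4.57). Ppm1d, a phosphatase that ends the p53 response, was second highest (4.63 and 5.09).

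The 3 members of the BCL2 family, all pro-apoptotic, did not differ in 1 direction. Pmaip1 (ENSMUSG00000024521, chr18:66458533-66465565, plus strand) encodes NOXA, a BH3-only protein that binds MCL1. It was at 5.10 log2 CPM in cells and 7.51 in tumors, or 34.3 against 182 CPM, a 5.31-fold difference and the largest of the members. Its place in the table moved from above 63.7% of genes to above 93.8%. Of all genes 94.2% had a smaller difference.

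Bbc3 and Bax were lower in tumors. Bbc3 (ENSMUSG00000002083, chr7:16308393-16318205, plus strand) encodes PUMA, a BH3-only protein that binds all the main survival proteins of the family. It was at 5.07 log2 CPM in cells and 4.15 in tumors, or 33.7 against 17.8 CPM. Bax (ENSMUSG00000003873, chr7:45461697-45466898, minus strand) encodes the protein that forms pores in the outer mitochondrial membrane. It was at 6.65 in cells and 5.61 in tumors, or 100.1 against 49.0 CPM, 2.04-fold higher in cells. Only 3.68% of all genes had a lower difference than Bax and 4.94% a lower one than Bbc3. The exons of Bax share 192 bases with Gm45808 on the same strand, so its count is uncertain to that extent.

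In cultured cells Pmaip1 and Bbc3 therefore had almost the same count, with a log2 ratio of 0.03, while in tumors this ratio was 3.35. The log2 ratio of Pmaip1 to Bax went from -1.55 to 1.90. Pmaip1 was compared with the gene of its partner too: Mcl1 was at 7.59 log2 CPM in cells and 8.51 in tumors, and the ratio of Pmaip1 to Mcl1 moved from -2.49 to -1.0. The log2 ratio of Bax to Bcl2, a survival gene of the family, was 1.55 in cells and 1.11 in tumors.

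Among 9 further BCL2 family genes 7 (77.8%) were higher in tumors and 2 lower, with a median difference of 0.92. Over all genes 55.9% were higher, with a median of 0.10. Centred on the reference genes, 7 of this list were higher again (77.8%, against 75.4% of all genes). The medians were then 1.25 for the list and 0.43 for all genes. Bmf (0.07 and 3.36 log2 CPM) and Bcl2l11 (3.66 and 5.91), both BH3-only genes like Pmaip1, were highest, followed by Bok (4.93 and 6.75), a relative of Bax. Bmf was below 1 log2 CPM in culture, so the size of its difference is uncertain. Bid (4.95 and 3.79), also a BH3 gene, and Bcl2 (5.09 and 4.50) were the 2 that were lower.

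**Figure D2:**
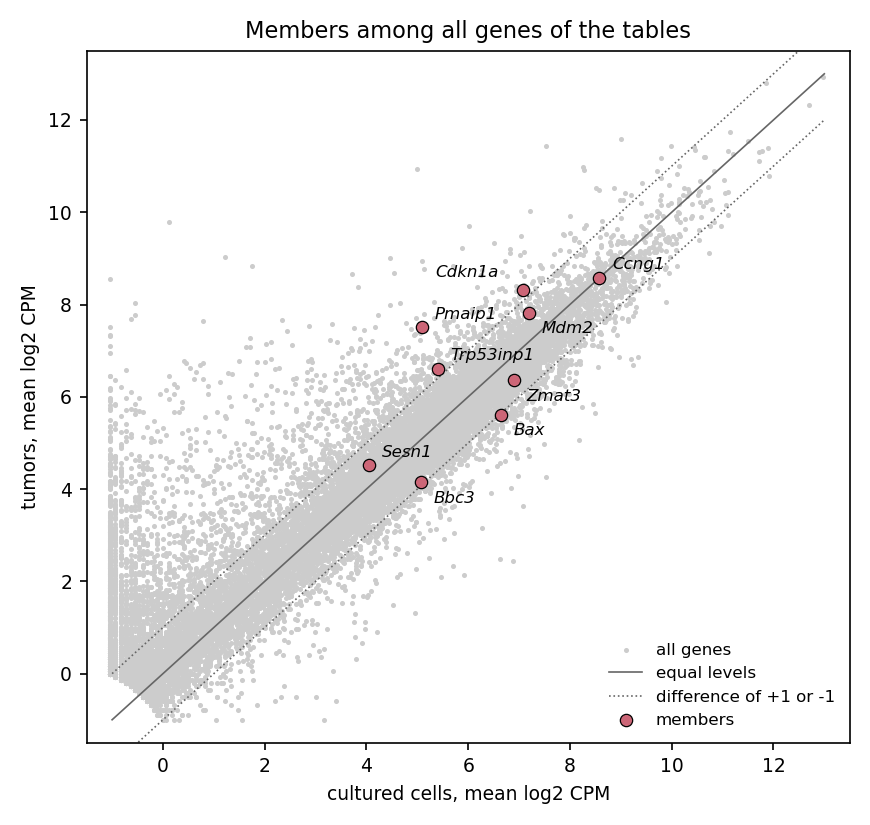
Mean level in tumors against mean level in cultured cells, both in log2 CPM, for 17285 genes (grey) and the 9 members (red), with lines for equal levels and for a difference of 1. Pmaip1, Cdkn1a and Trp53inp1 lie above the upper dotted line, Bax just under the lower one at -1.03 and Bbc3 just inside it at -0.92.

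Of the 3 stress response members Trp53inp1 and Sesn1 were higher in tumors and Zmat3 was lower. Trp53inp1 (ENSMUSG00000028211, chr4:11156431-11174379, plus strand) encodes a nuclear protein that supports p53 activity and autophagy. It was at 5.40 log2 CPM in cells and 6.61 in tumors, or 42.4 against 97.6 CPM, 2.30-fold higher. Its paralog Trp53inp2 differed in the same direction (4.74 and 6.41), and the log2 ratio of the 2 genes was 0.66 in cells and 0.20 in tumors.

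Sesn1 (ENSMUSG00000038332, chr10:41809935-41908424, plus strand) encodes sestrin 1, which restrains mTORC1. It was at 4.06 log2 CPM in cells and 4.52 in tumors, or 16.7 and 22.9 CPM. Its paralog Sesn2 went the other way (7.07 and 5.79), while Sesn3 was higher in tumors (5.01 and 5.91). The log2 ratio of Sesn1 to Sesn2 was -3.01 in cells and -1.28 in tumors.

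Zmat3 (ENSMUSG00000027663, chr3:32334792-32366014, minus strand) encodes an RNA-binding zinc finger protein that acts on splicing. It was at 6.90 log2 CPM in cells and 6.36 in tumors, or 120 against 82.4 CPM, a difference of -0.54 that was -0.21 when centred on the reference genes. With a union of exons of 11435 bases it is the longest of the members, and this length raises its count relative to the others.

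Levels of different genes were compared per kilobase of exon. On this log2 scale of CPM per kilobase Ccng1 was first in both tables at 6.77. In cultured cells it was followed by Bax (5.99), Cdkn1a (5.25), Mdm2 (4.85), Bbc3 (3.99), Pmaip1 (3.65), Zmat3 (3.39), Trp53inp1 (2.71) and Sesn1 (2.06). In tumors Cdkn1a (6.49), Pmaip1 (6.06) and Mdm2 (5.48) came next, ahead of Bax (4.96), Trp53inp1 (3.91), Bbc3 (3.07), Zmat3 (2.85) and Sesn1 (2.52). Pmaip1 moved from place 6 to place 3 and Bax from place 2 to place 5. Neighbours in this order cannot be separated, since no spread over samples is known.

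**Figure D3:**
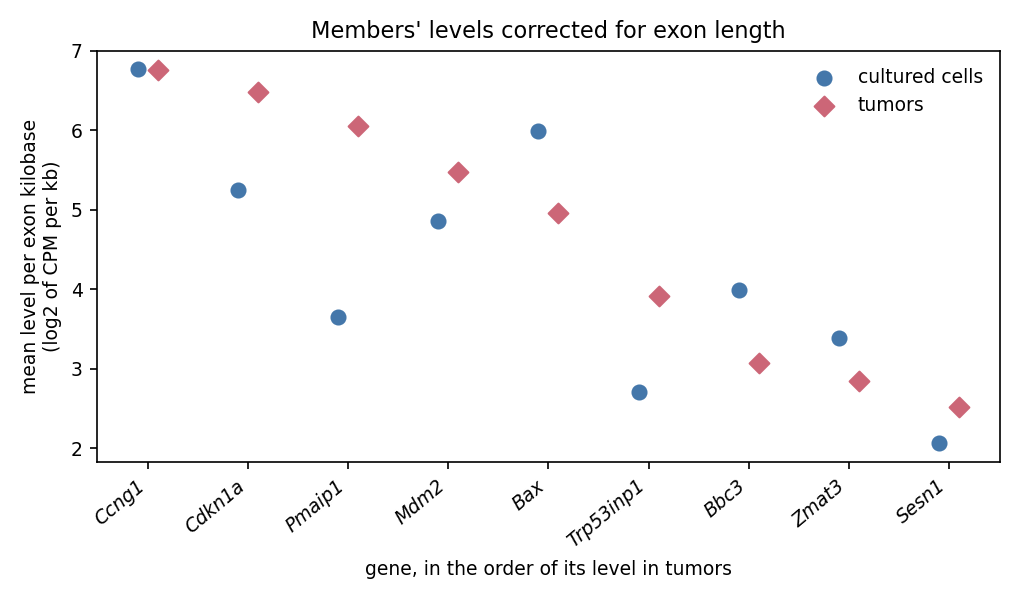
Level per kilobase of exon, as log2 of CPM per kilobase, for the 9 members in cultured cells (circles) and tumors (diamonds), ordered by the level in tumors. Ccng1 is highest in both at 6.77 and Sesn1 lowest at 2.06 and 2.52, while Bax takes place 2 in cells and place 5 in tumors.

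A wider list of 30 p53 targets also fell on both sides. Of these, 18 (60.0%) were higher in tumors and 12 lower, against 55.9% of all genes higher, and the median difference was 0.15 against 0.10. By over 1, 7 were higher (23.3%, against 16.6% of all genes) and 3 lower (10.0%, against 3.96%). Centred on the reference genes, 22 were higher (73.3%, against 75.4% of all genes) and 8 lower. Past 1, 8 were then higher (26.7%, against 23.7%) and 1 lower (3.33%, against 1.67%). Fas, which encodes a death receptor, was at 0.32 log2 CPM in cells and 2.47 in tumors, and Dram1, a gene of autophagy, at 2.04 and 4.0. Cd82, Ptprv, Polk, Btg2 and Eda2r followed, with differences between 1.47 and 1.83. Of these, Ptprv (-0.83 and 0.86 log2 CPM) was close to the lowest values in culture, where levels are poorly determined. Fas too was below 1 log2 CPM in culture, so the size of its difference is uncertain. Psrc1, a spindle gene, was lowest (4.98 and 3.28), followed by Sesn2 and by Plk2 (7.48 and 6.27). Fas, Btg2 and Cd82 are also expressed by leukocytes.

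**Figure D4:**
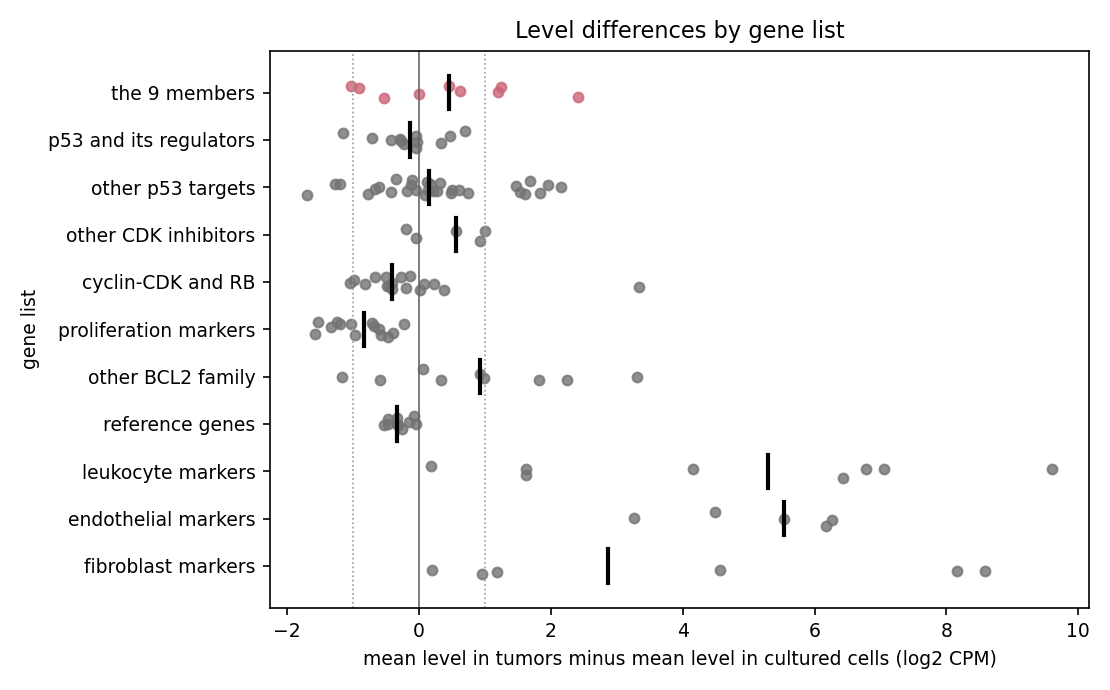
Difference of the mean levels, tumors minus cultured cells, in log2 CPM, with 1 point per gene and a bar at the median of each list. The members span -1.03 to 2.41, all 14 proliferation markers and all 10 reference genes lie below 0 on the deposited scale, and the leukocyte, endothelial and fibroblast markers lie above 0.

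Markers of host cells were higher in tumors throughout, many of them by more than any member. All 8 leukocyte markers with a row were higher in tumors, with a summed level of 6.04 CPM in cells and 600.1 CPM in tumors. Lyz2 and Csf1r of myeloid cells went from -1.05 to 8.55 and from -0.83 to 6.22 log2 CPM, whereas Itgam stayed at -0.39 and -0.20, and Cd8a and Nkg7 of lymphocytes reached 0.57 each. The 5 endothelial markers Pecam1, Cdh5, Kdr, Emcn and Tek were higher (3.18 and 144 CPM summed), as were the 6 fibroblast markers (3004 and 5791 CPM). The hemoglobin genes Hba-a1, Hba-a2, Hbb-bs and Hbb-bt, which mark red blood cells, had summed levels of 1.97 and 365 CPM. Of the fibroblast list Dcn (-0.55 and 8.03) and Lum (-1.05 and 7.11) were near the lowest level in culture, but collagen genes were not: Col1a2 was at 10.3 and 10.5 and Col3a1 at 9.79 and 10.7. Markers of keratinocytes (Krt5, Krt10 and Krt14), skeletal muscle (Ckm, Tnnt3 and Myh4) and adipocytes (Fabp4) were higher in tumors as well, with summed levels of 7.28, 12.9 and 11.7 CPM there. The members are expressed in many cell types, and the part of host cells in their differences was not tested. Fewer cells of a type and less RNA per cell cannot be told apart in these samples. Genes at or below 1 log2 CPM in culture made up 1.96% of all CPM in tumors. This share leaves out host RNA from genes above that level in culture, so it does not measure the part of host cells. The 10 reference genes were all lower in tumors, with a median difference of -0.33. The difference was -0.48 for Sdha and Rplp0, -0.08 for Ywhaz and -0.05 for Pgk1.

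Of the melanocyte markers 5 of 10 had a row in both tables. Pax3 was at 4.88 log2 CPM in cells and 4.64 in tumors, and Mitf, the master regulator of the lineage, at 2.67 and 4.23. Pmel was near the lowest level in both (-0.31 and 0.05), while Kit (-0.83 and 2.51) and Ednrb (-0.93 and 4.71) were near it in culture only. The pigment genes Tyr, Tyrp1 and Dct as well as Mlana and Sox10 were not analysed here. Nfe2l2 was at 7.70 and 8.25 log2 CPM, but as knockout and control are pooled this value checks no label.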

How the data were processed

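Poly(A) RNA was sequenced from 12 samples (4 groups of 3). Per the submitters' processing notes, the build was mm10 and the tools included TopHat2 2.1.1, Bowtie2 2.3.2 and FastQC. The sources used here do not say how genes were annotated, counted, normalized or filtered. The authors deposited 1 table for tumors and 1 for cultured cells, each with a mean level in log2 CPM per gene and with the fold changes, p-values and adjusted p-values of their comparison of knockout with control. These comparison columns were not used. Base 2 was checked: the linear values sum to about 1e+06 in each table. Depth is unknown, and no test was made, although the design had foreseen one on per-sample values. No standard deviation, interval or p-value is given.

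The members and lists were chosen with earlier results of these data known. Named genes are all members with a row and, of each list, the 2 highest and 2 lowest differences or, for lists of 5 or fewer, all genes, with Nfe2l2. Some genes that this rule names are not reported here. Further genes named were chosen after their values were seen. Exon lengths are unions of GENCODE M21 exons, found for 17230 genes. Promoter windows are from RefSeq, GRCm38.p6. Scripts used pandas 2.3.3, numpy 2.4.6 and matplotlib 3.10.9 under Python 3.11.15 and were tested on simulated data. The alternatives were other scalings, a floor of 1 log2 CPM and the mean in place of the median.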

Additional observations from a re-analysis of the deposited data

How the results depend on the processing

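The median difference of the members, 0.46, moved to 0.79 when the tables were centred on 10 reference genes, which were themselves lower in tumors by a median of 0.33 log2 CPM. It stayed within 0.1 with the other scalings (0.48 each), with only members above 1 (0.46) and as a mean (0.38). The rescaling to genes above 1 in cultured cells, and the scalings of the other gene lists, were chosen after seeing the data. The difference of Ccng1 changed sign, to 0.0248 when centred on all genes above 1 in both tables, 0.328 on the reference genes and 0.0209 after rescaling. The other 8 members kept their direction under each scaling, but with the reference genes each moved up by 0.33, so that Zmat3 went from -0.54 to -0.21, Bbc3 from -0.92 to -0.59 and Mdm2 from 0.63 to 0.95. Bax was then no longer lower by over 1 (-0.70), while Pmaip1, Cdkn1a and Trp53inp1 stayed higher by over 1. Under this scaling 23.7% of all genes were higher by over 1 and 1.67% lower, against 16.6% and 3.96% on the deposited scale. Against the 14459 genes above 1 in either table, 7 of 18 percentiles moved by over 5 points, by at most 10.1. No paired analysis was possible because only a mean over knockout and control was used from each table. For the same reason the planned count tests, filters on counts and fits without 1 replicate were not run, and neither depth nor replicate error can be stated.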
